A study of Mus musculus with 12 samples.

Results

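The genes described here are 9 genes of antigen presentation in the mouse left ventricle, out of 18079 genes in the deposited expression table. They were chosen by name, through their NCBI Gene identifiers, and comprise H2-Aa, H2-Ab1, H2-Eb1, Cd74 and Ciita of the MHC class II pathway and H2-K1, H2-D1, B2m and Tap1 of the class I pathway. All 9 were found in the table. For tests, a gene needed an FPKM (fragments scaled by transcript length and by the mapped reads of the library) of at least 1 in at least 3 libraries, which 11664 genes and 8 of the 9 met. Ciita did not meet it, at 0.15 to 0.38 FPKM.

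Left ventricular muscle came from 12 male C57BL/6 mice, 3 in each of 4 groups, with 1 library a mouse. DMSO+Sham and Hispidulin+Sham mice had a sham operation, whereas DMSO+AB and Hispidulin+AB mice had their descending aorta banded (AB), which loads the heart with pressure. Hispidulin, a plant flavone, was injected intraperitoneally at 20 mg/kg/day from 1 day before surgery, and control mice received its vehicle DMSO. Surgery was performed at 8 weeks of age and hearts were taken 4 weeks later, at 12 weeks. Polyadenylated RNA of the whole muscle was sequenced with single-end reads of 50 bases, so a level is an average over all cells of the sample, and fewer cells of a type cannot be told apart from less RNA per cell. Depth is unknown because the table holds no counts.

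MHC class II molecules are pairs of an alpha and a beta chain that show peptides from taken-up proteins to CD4 T cells, and are made mainly by macrophages, dendritic cells and B cells. Cd74, the invariant chain, guides them to the compartment where peptides are loaded, and Ciita is the transactivator that switches class II genes on. Class I molecules, made by nearly every cell, show peptides from inside the cell to CD8 T cells. H2-K1 and H2-D1 encode the classical class I heavy chains, B2m the light chain they share, and Tap1 a subunit of the transporter that brings peptides into the endoplasmic reticulum. Interferon gamma raises the genes of both pathways.

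Promoters are printed here because the genes of each pathway varied together among mice. RefSeq promoters on GRCm38.p6 matched 6 of the 9 genes, whereas H2-Ab1, Ciita and Cd74 are named only. Each line gives the 150 bases before the start site, 5′ to 3′ on the gene's strand. Capitals mark 3 motifs searched on both strands: CCAAT, bound by NF-Y, TGACG, the core of the CREB site, and AANNGAAA, a pattern bound by interferon regulatory factors. H2-Aa lies at chr17:34287824-34287973 (minus strand), H2-Eb1 at chr17:34305717-34305866 (plus), H2-K1 at chr17:34000348-34000497 (minus, the first of 2 starts in RefSeq), H2-D1 at chr17:35262944-35263093 (plus) and B2m at chr2:122147537-122147686 (plus).
H2-Aa: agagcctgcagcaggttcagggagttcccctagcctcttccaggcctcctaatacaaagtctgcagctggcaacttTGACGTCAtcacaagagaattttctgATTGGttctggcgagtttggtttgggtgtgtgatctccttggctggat
H2-Eb1: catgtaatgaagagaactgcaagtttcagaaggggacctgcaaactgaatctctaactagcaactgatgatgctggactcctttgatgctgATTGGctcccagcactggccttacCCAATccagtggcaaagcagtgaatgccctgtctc
H2-K1: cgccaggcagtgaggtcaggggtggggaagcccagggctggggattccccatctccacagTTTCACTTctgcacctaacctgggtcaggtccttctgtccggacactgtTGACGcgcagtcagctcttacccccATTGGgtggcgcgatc
H2-D1: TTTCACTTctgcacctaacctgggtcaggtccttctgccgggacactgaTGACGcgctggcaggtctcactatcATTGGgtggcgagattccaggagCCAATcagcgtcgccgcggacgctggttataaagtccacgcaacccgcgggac
B2m: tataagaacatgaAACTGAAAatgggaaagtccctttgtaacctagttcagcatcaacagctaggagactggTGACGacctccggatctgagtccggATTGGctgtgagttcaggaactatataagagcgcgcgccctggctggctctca

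H2-K1, H2-D1 and B2m each held all 3 motifs, as did 120 of 32851 windows of this length over all RefSeq promoters (0.365%). H2-K1 and H2-D1 carried the same letters TTTCACTT, which are AANNGAAA on the other strand. H2-Aa held CCAAT and TGACG, the latter on both strands with overlap, and H2-Eb1 held CCAAT on each strand. The Tap1 window, at chr17:34187406-34187555 (plus), held TGACG alone. Singly the motifs are common: CCAAT was in 24.5% of windows, TGACG in 13.3% and AANNGAAA in 12.4%. A match is a description of letters and no measure of binding.

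Cd74 was the most abundant of the class II genes and was lowest in 1 sham mouse. It measured 135.1, 113.82 and 61.02 FPKM in DMSO+Sham mice 1 to 3, 129.96, 91.77 and 141.83 with Hispidulin+Sham, 121.84, 127.57 and 116.79 with DMSO+AB, and 131.58, 148.66 and 150.99 with Hispidulin+AB. The 3 Hispidulin+AB mice lay above the 3 DMSO+AB mice without overlap, and DMSO+Sham mouse 3 lay below the other 11.

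H2-Aa, the alpha chain of I-A, measured 48.18, 51.26 and 16.37 FPKM in DMSO+Sham, 50.43, 41.38 and 53.17 in Hispidulin+Sham, 48.02, 46.52 and 40.37 in DMSO+AB, and 52.55, 57.59 and 53.19 in Hispidulin+AB. Its level in DMSO+Sham mouse 3 was below the range of the other 11 mice, 40.37 to 57.59, whose median was 3.08-fold higher. H2-Ab1, the beta chain of I-A, measured 41.91, 40.04 and 15.44 FPKM, then 37.27, 30.12 and 40.03, then 37.35, 35.8 and 34.06, then 42.13, 44.77 and 48.85 in the same order of groups. H2-Eb1, the beta chain of I-E, measured 26.25, 26.45 and 8.36 FPKM, then 26.73, 17.36 and 27.13, then 24.31, 23.05 and 21.3, then 25.27, 30.34 and 30.68. In both beta chains DMSO+Sham mouse 3 was again lowest, with the median of the other 11 mice 2.59-fold and 3.14-fold higher, and the banded groups did not overlap.

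Although the levels moved, the proportions of the class II transcripts stayed narrow. Per length, H2-Ab1 was 0.728 to 0.943 times H2-Aa over the 12 mice and H2-Eb1 was 0.42 to 0.577 times H2-Aa. Cd74 was 2.22 to 2.89 times H2-Aa in 11 mice and 3.73 times in DMSO+Sham mouse 3, where it was 2.13-fold below the median of the others. Ciita, the transactivator, was at 0.25, 0.29 and 0.21 FPKM in DMSO+Sham, 0.31, 0.26 and 0.3 in Hispidulin+Sham, 0.2, 0.15 and 0.3 in DMSO+AB, and 0.26, 0.24 and 0.38 in Hispidulin+AB. The 4 groups overlapped, and in DMSO+Sham mouse 3 it was 0.808 times the median of the others.

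**Figure D1:**
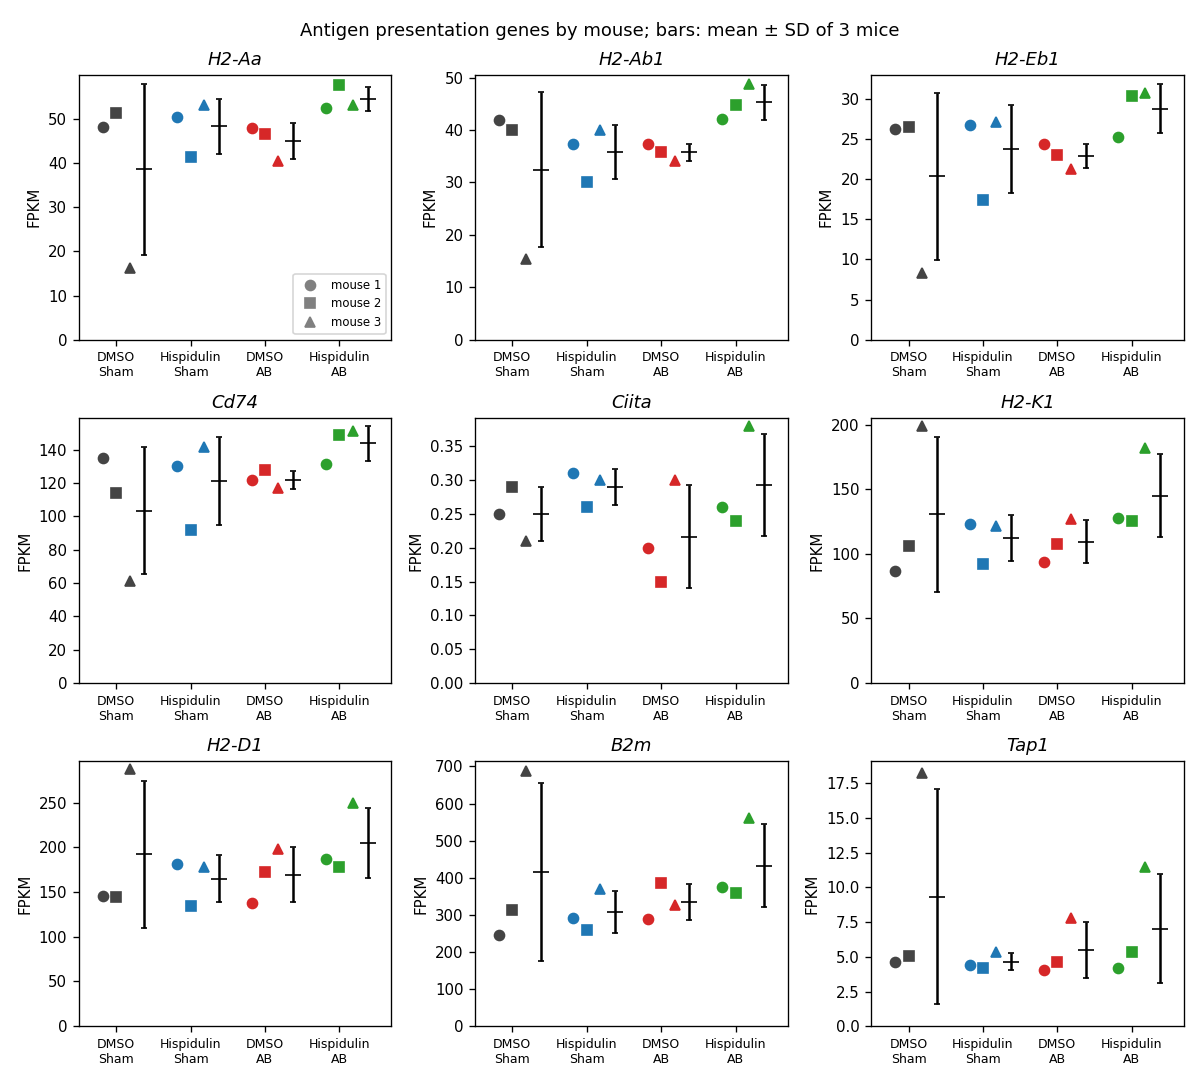
FPKM of the 9 genes (vertical axes from 0) in each of the 12 mice, by group, where circles, squares and triangles are mice 1, 2 and 3 of a group and the bar beside them is the mean ± SD (n = 3). DMSO+Sham mouse 3 is lowest in H2-Aa, H2-Ab1, H2-Eb1 and Cd74 and highest in H2-K1, H2-D1, B2m and Tap1.

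The class I genes had the opposite order in that mouse. H2-K1 measured 86.75, 106.2 and 198.65 FPKM in DMSO+Sham, 123.22, 91.99 and 121.79 in Hispidulin+Sham, 93.57, 107.77 and 126.59 in DMSO+AB, and 127.51, 125.73 and 181.88 in Hispidulin+AB. H2-D1 measured 145.81, 143.95 and 287.37 FPKM, then 181.35, 134.42 and 178.09, then 137.43, 171.94 and 198.33, then 187.4, 177.82 and 249.02. DMSO+Sham mouse 3 was highest and Hispidulin+AB mouse 3 second in both heavy chains, and all groups overlapped except Hispidulin+AB and Hispidulin+Sham for H2-K1.

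B2m, the highest of the 9, measured 244.52, 313.2 and 688.41 FPKM in DMSO+Sham, 291.24, 260.02 and 369.41 in Hispidulin+Sham, 288.76, 386.58 and 327.55 in DMSO+AB, and 374.73, 359.97 and 560.47 in Hispidulin+AB. Tap1 measured 4.66, 5.03 and 18.26 FPKM, then 4.43, 4.17 and 5.37, then 4.05, 4.66 and 7.77, then 4.19, 5.37 and 11.5. The same 2 mice were highest and second. In DMSO+Sham mouse 3, H2-K1 was 1.63-fold, H2-D1 1.62-fold, B2m 2.1-fold and Tap1 3.92-fold above the median of the other 11.

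H2-D1 was 1.36 to 1.68 times H2-K1 in every mouse. B2m was 1.81 to 3.71 times Cd74 in 11 mice and 11.3 times in DMSO+Sham mouse 3, and H2-K1 was 1.8 to 3.42 times H2-Aa in the 11 and 12.1 times in that mouse. The values of the heavy chains carry an uncertainty, because related genes share sequence: of 50-base windows of the longest GENCODE M21 transcript, 14.3% of H2-D1 and 8.79% of H2-K1 also occurred in other genes, 6.94% of H2-K1 in H2-D1. For Tap1 the share was 6.47%, mostly with its neighbour Psmb9, and for H2-Aa, H2-Ab1, H2-Eb1, Cd74 and B2m it was 0%.

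DMSO+Sham mouse 3 also stood apart over the whole table. Among all 11664 tested genes it was the lowest of the 12 mice in 13.4% and the highest in 22%. DMSO+AB mouse 3 was at an extreme in a like share of genes (37.4% against 35.4%), but all 9 antigen presentation genes lay inside the range of the other mice there. Results that rest on DMSO+Sham mouse 3 are therefore given with and without it.

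To ask whether pressure overload altered antigen presentation, DMSO+AB was compared with DMSO+Sham. No gene of the 8 tested had an adjusted p under 0.05 in limma, against 5.21% of all 11664 tested genes, and the groups overlapped in all 8, against 17.9% of tested genes without overlap. The class II genes were higher on average and the class I genes lower. H2-Aa was at 45 ± 4.05 FPKM (SD, n = 3) with DMSO+AB and 38.6 ± 19.3 with DMSO+Sham, a log2 fold change of FPKM + 1 of 0.37 (SE 0.32, adjusted p from limma 0.551). Tap1 was at 5.49 ± 2 and 9.32 ± 7.75 FPKM, with a log2 fold change of -0.46 (SE 0.44, adjusted p from limma 0.589). Without DMSO+Sham mouse 3 all 8 directions turned: H2-Aa was at -0.15, H2-Ab1 at -0.19, H2-Eb1 at -0.20, Cd74 at -0.02, H2-K1 at 0.17, H2-D1 at 0.21, B2m at 0.26 and Tap1 at 0.11, and the lowest adjusted p was 0.443.

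Hispidulin+AB was compared with DMSO+AB to ask what hispidulin did to the overloaded heart. All 8 genes were higher on average with hispidulin, as were 51.4% of all tested genes, but none had an adjusted p under 0.05 (adjusted p from limma 0.996 for each), against 0% of all tested genes (362 had an unadjusted p under 0.05). The log2 fold changes ran from 0.23 for Cd74 to 0.39 for H2-K1, with a median of 0.29 against 0.00472 over all tested genes. H2-Ab1 was at 45.2 ± 3.39 FPKM with Hispidulin+AB and 35.7 ± 1.65 with DMSO+AB (SD, n = 3), a log2 fold change of 0.33 with a 95% interval from -0.29 to 0.95. B2m was at 432 ± 112 and 334 ± 49.3 FPKM, a log2 fold change of 0.35 with an interval from -0.34 to 1.03. A doubling, at 1, lies outside the interval for 5 of these genes, H2-Aa, H2-Ab1, Cd74, H2-K1 and H2-D1, and inside it for H2-Eb1, B2m and Tap1.

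Groups did not overlap for 4 of the 8, the class II genes H2-Aa, H2-Ab1, H2-Eb1 and Cd74, against 7.88% of all tested genes and 4.23% with Hispidulin+AB on the higher side. Each of the 4 had an exact two-sided permutation p of 0.1, the smallest that 3 mice against 3 allow, and the 4 genes vary together and are not separate pieces of evidence. In the class I genes the groups overlapped, with an exact permutation p of 0.2 for H2-K1, 0.4 for H2-D1, 0.3 for B2m and 0.6 for Tap1. Leaving out Hispidulin+AB mouse 3 turned Tap1 to a log2 fold change of -0.13 and lowered H2-K1 from 0.39 to 0.22, H2-D1 from 0.27 to 0.12 and B2m from 0.35 to 0.15, and leaving out DMSO+AB mouse 1 lowered H2-D1 to 0.13 and Tap1 from 0.24 to 0.08. With DMSO+AB mouse 2 left out Tap1 was at 0.16. It rose to 0.48 without DMSO+AB mouse 3 and 0.50 without Hispidulin+AB mouse 1. The class II genes kept 0.20 to 0.40 with any 1 mouse left out. Unlike the comparison with sham, the directions here did not rest on DMSO+Sham mouse 3, which enters this difference only through the shared estimate of spread: without it the log2 fold changes stood, 3 of the 8 genes had an unadjusted p under 0.05 (H2-Aa, H2-Ab1 and H2-K1, against 4.09% of all genes tested without that mouse; with all mice 0 of the 8 and 3.1% did), and the lowest adjusted p from limma was 0.963. Animal numbers in the sample names of 11 mice fall into a lower series of 5 mice and a higher series of 6, which the labels do not call batches. The 8 differences were positive in both, at 0.33 to 0.77 in the lower series (1 mouse against 1) and 0.10 to 0.33 in the higher (2 against 2).

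**Figure D2:**
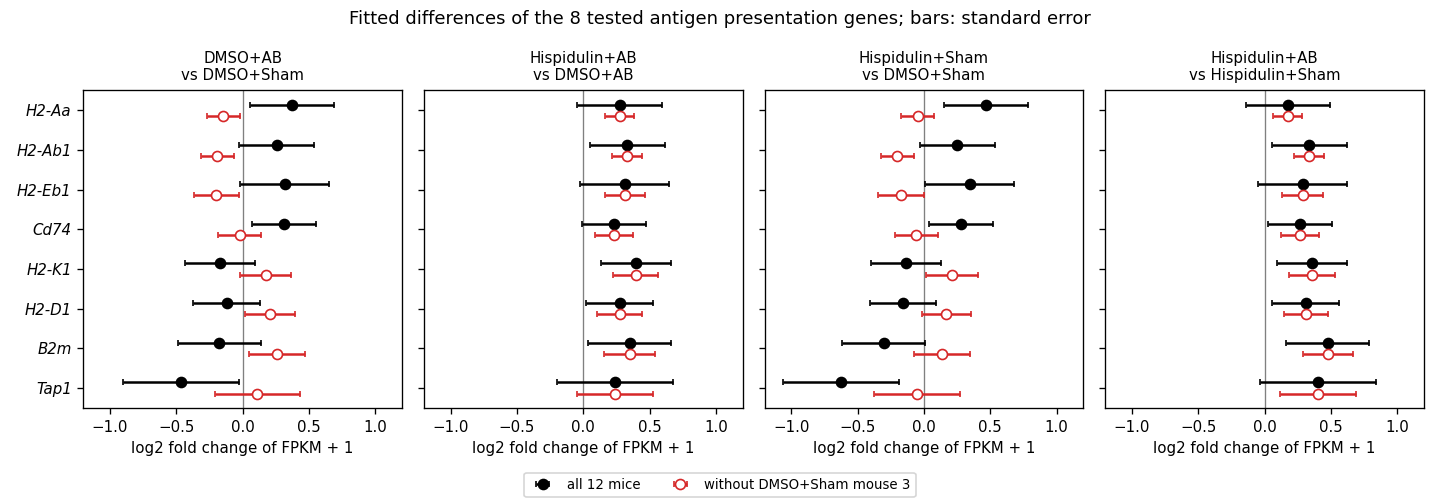
Fitted log2 fold change of FPKM + 1 (horizontal axes) with its standard error for the 8 tested genes in the 4 comparisons, with all 12 mice (black) and without DMSO+Sham mouse 3 (red, open). In both comparisons with DMSO+Sham the class II and class I genes point in opposite directions with all mice. Without that mouse 7 or 8 of the 8 turn. Hispidulin+AB against DMSO+AB, at 0.23 to 0.39, holds no DMSO+Sham mouse, so its fold changes cannot move and only its standard errors do.

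In the sham operated mice, Hispidulin+Sham against DMSO+Sham gave 0 of 8 genes with an adjusted p under 0.05 (adjusted p from limma 1 for each after rounding) against 0% of all tested genes, with 287 at an unadjusted p below that value, and no gene of the 8 was without overlap, against 5.6% of all tested genes. H2-Aa was at 48.3 ± 6.17 and 38.6 ± 19.3 FPKM, a log2 fold change of 0.47 (SE 0.32), and Tap1 at 4.66 ± 0.631 and 9.32 ± 7.75, a log2 fold change of -0.63 (SE 0.44). Without DMSO+Sham mouse 3 these became -0.05 for both genes, and of the 8 only Tap1 kept its direction. Both comparisons with DMSO+Sham share that mouse and the other DMSO+Sham mice.

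Within the lower number series, where DMSO+Sham is represented by mouse 2, the class II differences were -0.34 to 0.04 for banding and -0.28 to -0.06 for hispidulin. Within the higher series, where it is represented by mouse 3 alone (mouse 1 is in neither), they were 1.02 to 1.47 and 1.2 to 1.64. The class I differences in the lower series were 0.06 to 0.54 for banding and -0.19 to 0.12 for hispidulin, and in the higher series -1.85 to -0.90 for banding and -1.60 to -0.69 for hispidulin.

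Banding under hispidulin, Hispidulin+AB against Hispidulin+Sham, again gave higher means for all 8 genes (45.1% of all tested genes were higher), with log2 fold changes of 0.18 for H2-Aa to 0.48 for B2m. These too leaned on single mice. Leaving out Hispidulin+Sham mouse 2 lowered H2-Aa to 0.0698, H2-Ab1 from 0.34 to 0.22, H2-Eb1 from 0.29 to 0.0866, Cd74 from 0.27 to 0.0791, H2-K1 from 0.36 to 0.22 and H2-D1 from 0.31 to 0.17. Leaving out Hispidulin+AB mouse 3 lowered H2-K1 to 0.18, H2-D1 to 0.16, B2m to 0.27 and Tap1 from 0.40 to 0.0294, and Tap1 was at 0.66 without Hispidulin+AB mouse 1. None of the 8 passed at an adjusted p of 0.05 (lowest 0.843, limma), against 0% of all tested genes, and 847 tested genes were below 0.05 before adjustment. A fit that blocked on replicate number called 17 genes, none of them among the 8. H2-Ab1 and H2-K1 did not overlap between the groups (2 of 8, both higher, against 20.9% of all tested genes and 9.14% higher). The differences were 0.22 to 1.24 in the lower number series and -0.15 to 0.11 in the higher, where Cd74, B2m and Tap1 were below 0 and the other 5 genes at 0.0286 to 0.11. The interaction of hispidulin and AB was not significant for any of the 8 (against 0% of all tested genes, 289 at an unadjusted p below 0.05, adjusted p from limma 1 after rounding), with estimates from -0.19 for H2-Aa to 0.87 for Tap1. All 8 estimates were positive without DMSO+Sham mouse 3, with H2-Aa at 0.32, H2-Ab1 at 0.53 (from 0.0789), H2-Eb1 at 0.49, Cd74 at 0.29, H2-K1 at 0.18 (from 0.53), H2-D1 at 0.10 (from 0.43), B2m at 0.22 (from 0.65) and Tap1 at 0.29, and the adjusted p from limma was again 1 after rounding.

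Over the 12 mice, the genes fell into a class II and a class I set that each varied together. All 6 pairs of H2-Aa, H2-Ab1, H2-Eb1 and Cd74 had a Pearson r of log2(FPKM + 1) from 0.931 to 0.987 and a Spearman rho from 0.832 to 0.937 (permutation p adjusted over 36 pairs 0.00018 to 0.0013 for r and 0.00072 to 0.00715 for rho). They kept 0.772 to 0.933 without DMSO+Sham mouse 3, 0.764 to 0.921 without the 2 mice farthest from the median, and 0.917 to 0.987 on deviations from group means. The 6 pairs of H2-K1, H2-D1, B2m and Tap1 had r from 0.864 to 0.971 and rho from 0.639 to 0.93 (adjusted permutation p 0.00018 to 0.00573 and 0.00072 to 0.0884).

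H2-K1 and H2-D1 stayed together without DMSO+Sham mouse 3 and Hispidulin+AB mouse 3, the 2 farthest mice, at r of 0.91, whereas the pairs of Tap1 fell most, from 0.864 to 0.269 with B2m, from 0.873 to 0.479 with H2-K1 and from 0.886 to 0.56 with H2-D1, and so the place of Tap1 in the set rests on those mice. By rank over the 12 mice, Tap1 with H2-K1 and with B2m had adjusted permutation p of 0.0796 and 0.0884. Leaving out either of them alone also ended the call for B2m and Tap1, at r of 0.719 and 0.827 (adjusted permutation p 0.063 and 0.067). Between the sets, the 16 pairs had r from -0.724 for H2-Aa with Tap1 to -0.283 for Cd74 with H2-K1, none with an adjusted permutation p under 0.05 (lowest 0.125), and rho from 0.042 to 0.196. Without DMSO+Sham mouse 3 all 16 were positive, from 0.0687 to 0.632, so the negative sign rests on that mouse. Ciita, at its low level, gave r of 0.0495 to 0.397 with the other 8, none with an adjusted permutation p under 0.05 (lowest 0.304).

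**Figure D3:**
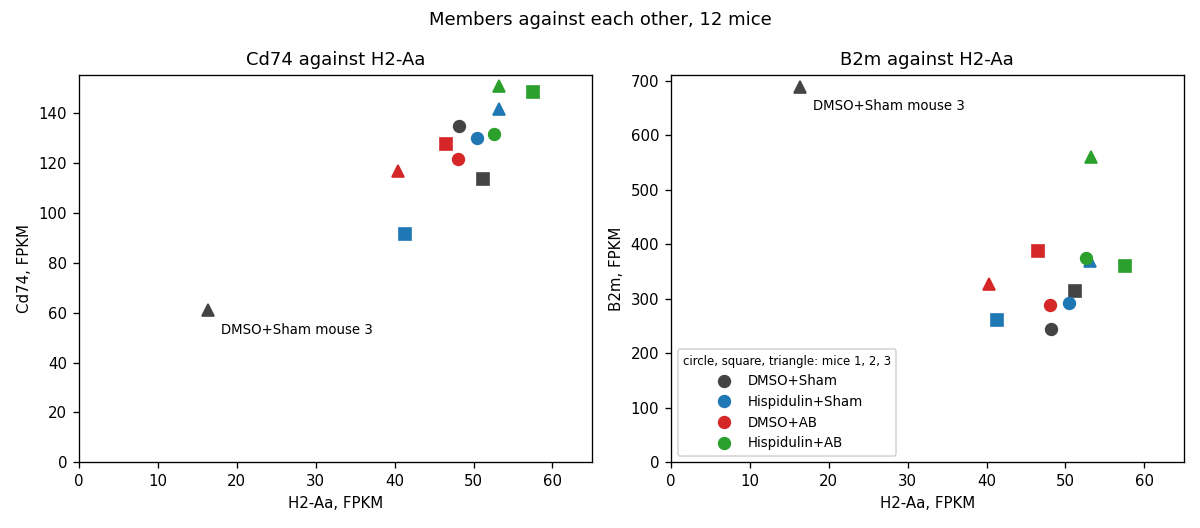
FPKM of Cd74 (left) and B2m (right) against FPKM of H2-Aa, 1 point a mouse, coloured by group. Cd74 follows H2-Aa down to DMSO+Sham mouse 3 at 16.37 and 61.02 FPKM, whereas B2m is at its highest there, 688.41 FPKM.

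The genes whose level was most like the class I set included Stat2 and Irf7, which act in interferon signalling. By Pearson r over the 12 mice with the mean standardized level of H2-K1, H2-D1, B2m and Tap1, the 5 highest of the other tested genes were Stat2 (r 0.95), a transcription factor of type I interferon signalling, Lgals3bp (0.949), a secreted glycoprotein, Oasl2 (0.947), of the oligoadenylate synthetase family, Parp10 (0.94), an ADP-ribosyltransferase, and Irf7 (0.939), the interferon regulatory factor that drives type I interferon genes. Irf7 was at 130.63 FPKM in DMSO+Sham mouse 3, 40.27 in Hispidulin+AB mouse 3 and 5.39 to 9.73 in the other 10 mice. Oasl2 was at 47.08 and 27.04 FPKM in these 2 mice and 3.76 to 8.91 in the rest. Without DMSO+Sham mouse 3, Stat2, Lgals3bp and Irf7 were still among the 5 highest, with r of 0.904, 0.904 and 0.898, and Oasl2 and Parp10 ranked 6 and 7. These r still include Hispidulin+AB mouse 3, where Stat2 was at 12.64 FPKM against 4.26 to 5.77 in the other 10 mice. Lgals3bp was at 45.01 FPKM in that mouse against 12.61 to 25.01. The r without both mice was not computed.

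The nearest genes to the class II set were of other kinds and rested more on that mouse. They were Plce1 (r 0.944), a phospholipase, Sox7 (0.927), an endothelial transcription factor, Hsd17b7 (0.923), an enzyme of cholesterol synthesis, Tmem117 (0.904) and Pdss1 (0.904), an enzyme of coenzyme Q synthesis. Without DMSO+Sham mouse 3 their r was 0.435 to 0.747 and none ranked higher than 20. The 5 highest then were Map3k8 (r 0.91), a kinase, Klf10 (0.854), a transcription factor, Zbtb6 (0.835), Epc1 (0.821) and the neutrophil marker S100a9 (0.816), whose r with all 12 mice was -0.29, 0.658, -0.0125, 0.119 and -0.19. No other class II gene was among them, although H2-DMa and H2-DMb1, which exchange peptides on class II molecules, were also lowest in DMSO+Sham mouse 3, at 1.38 and 1.61 FPKM against 1.49 to 3.15 and 2 to 4.45 in the others. H2-DMb1 was also higher in the 3 Hispidulin+AB mice (3.52, 4.05 and 4.45 FPKM) than in DMSO+AB (2.31, 3.47 and 2.1), with a log2 fold change of 0.48 (SE 0.19, adjusted p from limma 0.996), a pattern without overlap that 4.23% of all tested genes shared. H2-DMa overlapped, at 2.33, 3.15 and 3 FPKM against 1.59, 2.51 and 3.11. All 6 tested class II molecules were lowest in that mouse, and the summed level of the 10 class II genes in the table was 104.84 FPKM there and 184.7 to 291.78 elsewhere.

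The wider class I pathway was described by lists. Of 14 tested class I heavy chains and relatives, with B2m counted among them, 9 were highest in DMSO+Sham mouse 3, including the nonclassical H2-T23 at 90.87 FPKM (21.96 to 39.59 in the others) and H2-T24 at 25.06 (3.38 to 12.48), while H2-Q6 and H2-Q7 were highest in Hispidulin+AB mouse 3 (23.48 and 14.56 FPKM) and Mr1, Cd1d1 and Fcgrt, distant relatives, were highest in neither. Fcgrt was at its lowest in DMSO+Sham mouse 3, at 40.09 FPKM against 44.54 to 61.68 in the others. None of the 14 had an adjusted p under 0.05 in any comparison. In Hispidulin+AB against DMSO+AB, 12 of the 14 were higher, against 51.4% of all tested genes. Their median log2 fold change was 0.34, against 0.00472 over all tested genes. The highest was H2-Q6 at 1.03 (SE 0.69), which was listed at 0 in 2 Hispidulin+Sham mice and is nearly identical to its neighbours. These values lean partly on Hispidulin+AB mouse 3. H2-Q6 was at 23.48 FPKM there, 8.99 and 8.63 in Hispidulin+AB mice 1 and 2, and 3.56 to 7.96 in DMSO+AB. H2-T23 was at 39.59 FPKM there, but at 24.89 and 25.41 in mice 1 and 2, inside the DMSO+AB range of 21.96 to 29.7. The median without that mouse was not computed. Against DMSO+Sham, DMSO+AB had 12 of 14 lower with a median of -0.16, which became 0.12 without DMSO+Sham mouse 3.

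Of 8 peptide loading genes, 5 were highest in DMSO+Sham mouse 3, among them Tap2 at 28.53 FPKM (13.47 to 18.42 in the others) and Tapbp, which bridges the transporter and the class I molecule, at 58.78 (25.14 to 37.28). Calr was lowest there, at 147.36 FPKM against 158.57 to 243.14, and Canx and Pdia3 lay inside the range of the others. All 8 were lower with DMSO+AB than DMSO+Sham on average, none with an adjusted p under 0.05. Their median log2 fold change was -0.26 with all mice and -0.0346 without DMSO+Sham mouse 3, beside -0.035 and -0.0115 over all tested genes. The nearest was the chaperone Canx, with a log2 fold change of -0.54 (SE 0.15, adjusted p from limma 0.0624) and -0.58 without DMSO+Sham mouse 3.

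Of the 60 tested genes of the 8 antigen presentation lists, 1 passed with banding (1.67%, against 5.21% of all tested genes), and it belongs to the immunoproteasome. Psmb10, 1 of its 3 catalytic subunits, rose from 37.81, 36.68 and 41.48 FPKM in DMSO+Sham to 43.5, 65.63 and 59.67 in DMSO+AB, a log2 fold change of 0.51 (SE 0.13, adjusted p from limma 0.0473). Without DMSO+Sham mouse 3 it was 0.56 with an adjusted p of 0.0568, so the call was lost. It was at 45.05, 50.07 and 50.63 FPKM in Hispidulin+AB, a difference from DMSO+AB of -0.19 (adjusted p 0.996). The other catalytic subunits behaved differently by mouse: Psmb8 was at 38.34 FPKM in DMSO+Sham mouse 3 and 9.61 to 19.32 elsewhere, and Psmb9 at 19.02 and 5.86 to 13.75, whereas Psmb10 in that mouse lay inside the range of the others, 34.57 to 65.63.

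Of 9 tested class I and interferon gamma regulators, Nlrc5 and Socs1 met the filter on low values only through DMSO+Sham mouse 3, where they were highest. Of the other 7, Irf2, Irf8 and Jak2 were highest in that mouse, Ifngr2, a chain of the interferon gamma receptor, was lowest at 59.89 FPKM against 101.25 to 140.06, and Irf1, Jak1 and Ifngr1 lay inside the range. Nlrc5, the class I transactivator, was at 3.96 FPKM in DMSO+Sham mouse 3, 1.97 in Hispidulin+AB mouse 3 and 0.54 to 1.02 in the others. Ifng, which encodes interferon gamma, was listed at 0 in 11 of 12 mice and at 0.07 in DMSO+Sham mouse 1. Rfx5, Rfxap, Rfxank, Creb1 and the NF-Y subunits, the factors that bind class II promoters, had no adjusted p under 0.05 in any comparison, and DMSO+Sham mouse 3 was lowest in 1 (Nfyc, 21.48 FPKM), highest in 2 and inside the range in 4 of the 7. Of 5 tested costimulation genes 3 were highest in that mouse, led by Cd274, the inhibitory ligand PD-L1, at 10.91 FPKM against 1.42 to 4.34. The class II processing proteases Ctsl, at 406.91 FPKM against 102.36 to 154.44, and Ctss, at 47.62 against 10.32 to 35.49, were highest there too, as was Ifi30, a thiol reductase, whereas Ctsb, Ctsd and Lgmn lay inside the range of the others.

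**Figure D4:**
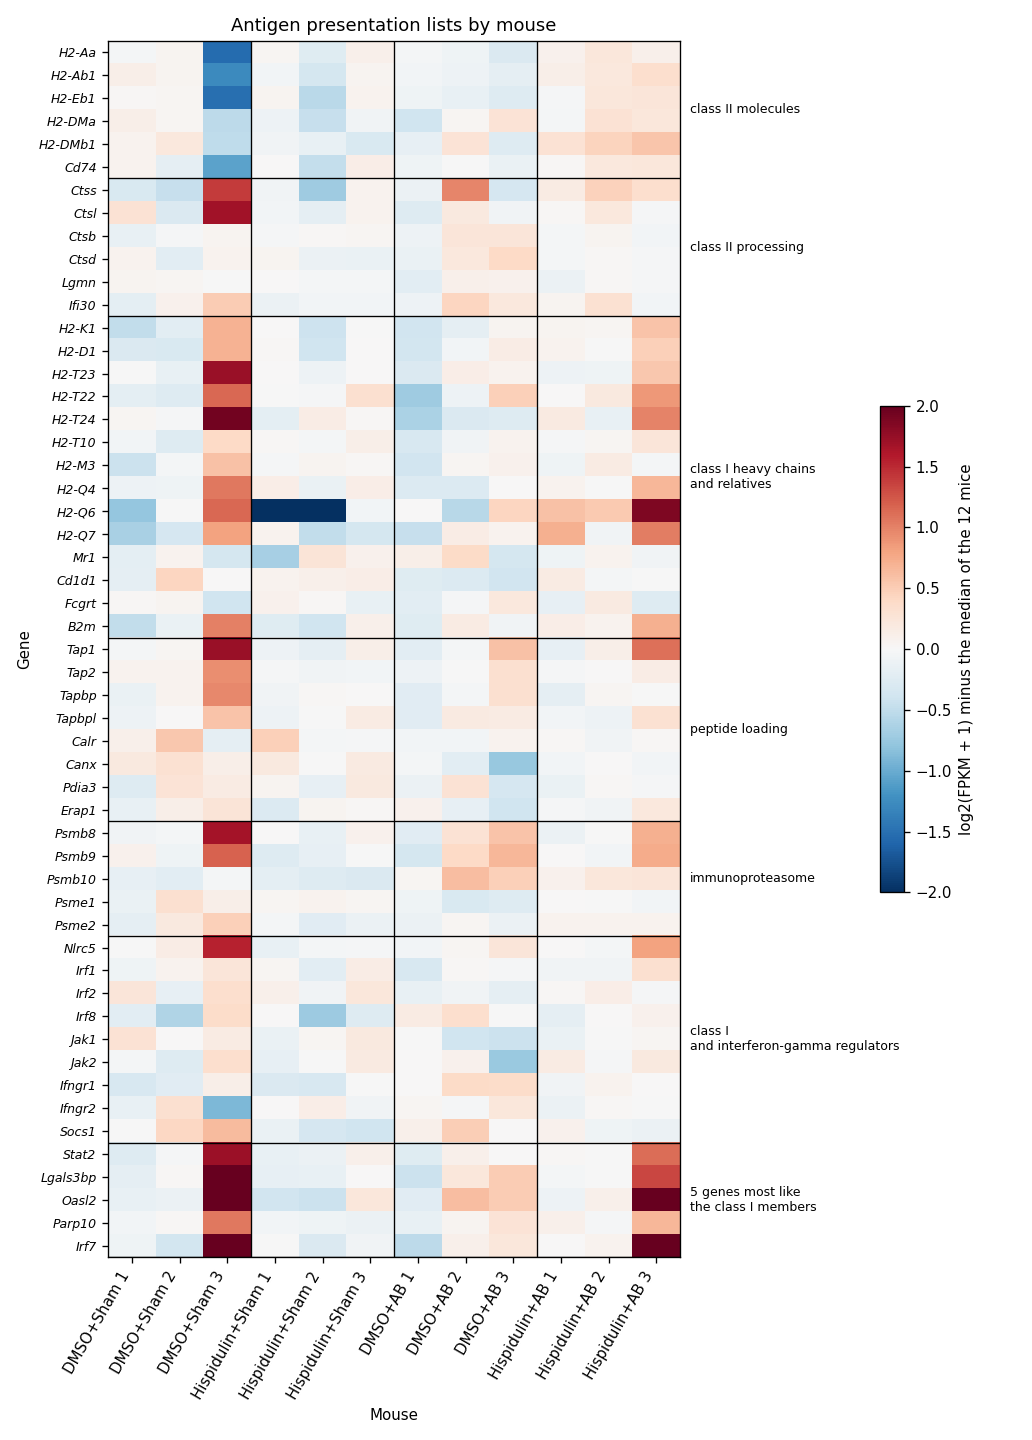
Levels of the tested genes of 6 antigen presentation lists and the 5 genes most like the class I set (rows) in the 12 mice (columns), as log2(FPKM + 1) minus the median of the gene over mice, red above and blue below. DMSO+Sham mouse 3 is blue in the 6 class II molecules and red in most class I, loading and regulator genes, and Hispidulin+AB mouse 3 is red in H2-K1, H2-D1, B2m and Tap1 without being blue in the class II molecules.

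Some markers of the cells that could carry these genes also stood out in DMSO+Sham mouse 3. Of 12 macrophage markers, 7 were highest in DMSO+Sham mouse 3, among them Fcgr1 (13.53 FPKM against 0.5 to 2.09) and Itgam (18.22 against 1.26 to 3.41), and their summed level was 599.52 FPKM there, 281.16 to 337.67 in the other DMSO+Sham mice, 274.75 to 415.4 in Hispidulin+Sham, 355.28 to 546.26 in DMSO+AB and 369.71 to 457.18 in Hispidulin+AB. The monocyte markers Plac8 and Chil3, which did not meet the filter, were at 15.53 and 6.18 FPKM there and no higher than 1.17 and 0.51 elsewhere. Ly6c2 was also highest there, at 2.42 FPKM against 0.37 to 1.11, whereas Ccr2 lay inside the range, at 1.45 against 0.23 to 2.29. The sum of these 4 monocyte markers was 25.58 against 0.67 to 5.08, mostly from Plac8 and Chil3. Neutrophil markers summed to 58.98 FPKM against 1.06 to 33.32. Mrc1, a marker of resident macrophages, lay inside the range of the others at 5.86 FPKM.

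Of 8 dendritic cell markers, 6 stayed under 1 FPKM in every mouse, and the sum in DMSO+Sham mouse 3 was 9.27 FPKM against 5.74 to 9.36. The 5 B cell markers used summed to 0.54 FPKM in that mouse and 0.54 to 1.47 in the others, and the 6 T cell markers to 0.54 and 0.53 to 1.41. Each of these 11 markers was under 1 FPKM in every mouse, and Ms4a1, Cr2, Cd3e and Cd3d were listed at 0 in DMSO+Sham mouse 3 and in at least 1 other mouse. The part of these cells in the levels of H2-Aa, Cd74 or the class I genes was not tested.

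Between Hispidulin+AB and DMSO+AB, where the class II genes did not overlap, the macrophage sums did. Of 12 macrophage markers 5 were higher and 7 lower with hispidulin, with a median log2 fold change of -0.00416 and none with an adjusted p under 0.05. The neutrophil markers S100a8 and S100a9 were higher in Hispidulin+AB by 1.39 (SE 0.68) and 1.34 (SE 0.76), also without a call, and their list summed to 20.25 to 33.32 FPKM with Hispidulin+AB and 4.99 to 22.89 with DMSO+AB.

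The labelled tissue carried its markers, with Myl2, the ventricular light chain, at 11178 to 16920 FPKM. The atrial gene Myl7 was at 333.05 FPKM in Hispidulin+Sham mouse 3, 67.54 in DMSO+AB mouse 2, 42.26 in Hispidulin+AB mouse 3 and 0.24 to 15.03 in the rest, and haemoglobin genes were highest in Hispidulin+Sham mouse 3, whose H2-Aa of 53.17 and H2-K1 of 121.79 FPKM were near those of Hispidulin+Sham mouse 1. Among the marker lists, Nppa, which encodes atrial natriuretic peptide and is a known marker of a loaded ventricle, rose with DMSO+AB against DMSO+Sham by a log2 fold change of 4.54 (adjusted p from limma 0.0121), Col1a1 rose by 1.86 (adjusted p 0.0407, and 0.0946 without DMSO+Sham mouse 3) and Ryr2 fell by 0.59 (adjusted p 0.0364, and 0.0726 without it). A single call was gained without that mouse, the macrophage marker Cd14, at a log2 fold change of 0.80 (SE 0.20, adjusted p from limma 0.0481) against 0.23 (adjusted p 0.775) with all mice, and the median of the 12 macrophage markers went from 0.13 to 0.41. The 6 markers of endothelial cells, which can also present antigen, summed to 236.22 to 293.84 FPKM over the 12 mice and 256.46 in DMSO+Sham mouse 3, where 3 of the 6 (Cdh5, Kdr and Tie1) were at their lowest. Of 6 fibroblast markers 4 (Lum, Col1a1, Col3a1 and Tcf21) were also lowest in that mouse, as the class II genes were, and the part of these cells in the class II levels was not tested.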

How the data were processed

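Left ventricular RNA of 12 mice was analysed from 1 table of 18079 genes. The authors deposited FPKM, rounded to 0.01, from single-end reads of 50 bases on a BGISEQ-500. The submitters' processing notes name HISAT2 2.0.4, Bowtie2 2.2.5, RSEM 1.2.12 and DESeq2 1.4.5 without their roles. Genome build and annotation are not given in the sources used here. The steps between low FPKM did not give whole reads (ratios fell within 0.1 of an integer in 19.2% of cases, where 20% would do so evenly), and depth is therefore unknown and no counting error is given.

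Groups came from the labels. The 9 genes and all lists were chosen with earlier results of these data known. Genes were matched by NCBI Gene identifier (RefSeq symbols for 17947 genes). Values were tested as log2(FPKM + 1) in limma 3.58.1 (R 4.3.3) with 1 mean per group over all 12 libraries and eBayes moderation that follows the mean-variance trend; p-values are two-sided and Benjamini-Hochberg adjusted over 11664 genes, after tests on simulated data. Single genes were also compared by exact permutation, and pairs by 100000 permutations with adjustment over 36 pairs. Named genes are the 9, list genes that passed in a comparison or were 1 of the 2 of largest change after AB or with hispidulin after AB, and the 5 most like each set. Not all that met this are printed. Genes named for DMSO+Sham mouse 3 were picked after their values were seen. Symbols Ighm and Trac were not analysed here, and some list genes are not reported here.

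Replicate numbers name different mice. Deviations of same-numbered mice correlated by 0.126, 0.33 and 0.232 for hispidulin in sham mice. For banding under hispidulin the correlations were 0.147, 0.197 and 0.228. As each is over 0.1, these comparisons were also fitted with number as a block. Their mean was -0.0887 for banding under DMSO and 0.0977 for hispidulin after banding. Nothing names separate litters or days, so p-values measure the spread between these mice. Promoters are RefSeq's on GRCm38.p6, and shared windows were counted in GENCODE M21 with Python 3.11.15.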

Additional observations from a re-analysis of the deposited data

How the results depend on the processing

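No alternative gave any of the 8 tested genes an adjusted p under 0.05, in 872 refits of a gene in a comparison, and the replicate block changed no call among them. Of the other settings, library weights turned DMSO+AB against DMSO+Sham for H2-Ab1 (-0.0794), H2-Eb1 (-0.0352), H2-K1 (0.14), H2-D1 (0.0905) and B2m (0.31), Hispidulin+Sham against DMSO+Sham for H2-Ab1 (-0.15), H2-Eb1 (-0.11), Cd74 (-0.13), H2-K1 (0.16), H2-D1 (0.0174) and B2m (0.0642), and the interaction for H2-Aa (0.15), H2-Eb1 (0.37) and Cd74 (0.31). The weights gave DMSO+Sham mouse 3 the least of all, 0.328. The number series as a covariate turned the interaction of H2-Ab1 (-0.13). Quantile normalization moved r with Ciita to between -0.37 and -0.0147.

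With 1 mouse left out at a time, log2 fold changes for DMSO+AB against DMSO+Sham ranged from -0.15 to 0.65 for H2-Aa, -0.19 to 0.50 for H2-Ab1, -0.20 to 0.58 for H2-Eb1, -0.0235 to 0.54 for Cd74, -0.42 to 0.17 for H2-K1, -0.29 to 0.21 for H2-D1, -0.48 to 0.26 for B2m and -0.77 to 0.11 for Tap1. For Hispidulin+Sham against DMSO+Sham they ranged from -0.0474 to 0.75 for H2-Aa, -0.20 to 0.49 for H2-Ab1, -0.17 to 0.60 for H2-Eb1, -0.057 to 0.51 for Cd74, -0.38 to 0.21 for H2-K1, -0.33 to 0.17 for H2-D1 and -0.61 to 0.13 for B2m. Tap1 ranged from -0.13 to 0.50 for Hispidulin+AB against DMSO+AB. The interaction ranged from -0.47 to 0.32 for H2-Aa, -0.16 to 0.53 for H2-Ab1, -0.29 to 0.49 for H2-Eb1 and -0.28 to 0.29 for Cd74. Leaving out DMSO+Sham mouse 3 turned all of these except Tap1 with hispidulin after AB (Hispidulin+AB mouse 3) and H2-Ab1 in the interaction (DMSO+Sham mouse 1 or 2, or Hispidulin+Sham mouse 2). H2-D1 after AB also turned without DMSO+AB mouse 1, H2-K1 with hispidulin in sham mice without Hispidulin+Sham mouse 2, and the interaction of H2-Eb1 and Cd74 without other mice. The lowest r ranged from -0.90 to 0.0687 and the highest from -0.50 to 0.63 across the sets, the lowest from 0.72 to 0.90 within class I, and the lowest with Ciita from -0.33 to 0.18.

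Over all genes, the 608 calls for DMSO+AB against DMSO+Sham were 383 without a filter, 1423 with library weights, 142 with the number series, 11 with only the 6 libraries compared and 91 to 1050 with 1 mouse left out. The 0 calls for Hispidulin+AB against DMSO+AB were 2 without a filter and 0 to 20 with 1 mouse left out (20 without DMSO+AB mouse 1). The 0 calls for Hispidulin+AB against Hispidulin+Sham were 2 without a filter, 2 with median-of-ratios scaling, 3 with quantile normalization, 209 with library weights, 17 with the replicate block, 51 with only the libraries compared and 0 to 10 with 1 mouse left out, and those of the interaction 0 to 3. The cause was not tested. The number of mice, 3 a group, and an unknown depth limit all values, and H2-D1, H2-K1 and Tap1 share sequence with other genes.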
